A study of Homo sapiens with 6 samples.

Results

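The genes described here are 35 established targets of p53, chosen from a list by name, in A549 cells whose CNOT3 mRNA was depleted. Each listed gene was represented by probe sets that the platform annotation assigns to that gene alone. For 34 of the 35 such a probe set was found (82 probe sets in all), and all 34 were bright enough to be tested, among 12630 genes tested in all. Values are MAS5 probe set intensities as deposited, and each gene was read from its brightest such probe set. A gene counted as bright enough when its mean log2(intensity + 1) over the 6 arrays reached 5.96, called the brightness limit here. A DOX change is the difference of log2(intensity + 1), DOX minus no DOX, within a line, so 1 means a doubling, and changes of dim genes are understated. FDXR was the gene with no probe set named in the annotation, and it was not analysed here. A549 is an established lung adenocarcinoma cell line, and in this study 3 stable lines of it had been made with lentiviral vectors.

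The lines carried a tetracycline-controlled short hairpin RNA against CNOT3 (shCNOT3-1 or shCNOT3-2, different target sequences) or a non-targeting hairpin (shNTC). Each was grown with doxycycline (DOX, 1 ug/ml, 72 hours), which switches the hairpin on, and without it. That gave shCNOT3 lines with DOX (n = 2, 1 array per hairpin), shCNOT3 lines without DOX (n = 2), shNTC with DOX (n = 1) and shNTC without DOX (n = 1). All groups, controls included, carried a lentiviral hairpin, and all arrays with DOX shared exposure to the drug. The labels do not say whether a line was a single clone, and nothing in them describes repeat cultures. The p-values therefore reflect the spread between these single arrays, which may be partly technical.

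p53 is a transcription factor that the ubiquitin ligase MDM2 keeps at a low level in unstressed cells. After DNA damage or other stress it accumulates and switches on genes for cell cycle arrest, DNA repair, apoptosis, antioxidant metabolism and autophagy, together with MDM2 and other genes that switch it off again. A549 is known to keep wild-type p53. CNOT3 is a subunit of CCR4-NOT, the complex that shortens the poly(A) tails of mRNAs and so sets how long many of them last. The comparisons asked whether mRNAs of p53 targets differed when CNOT3 was depleted, and whether they differed more than in the control line given the same drug.

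The promoter windows of 3 genes are shown because they hold the p53 decamer, the 10-base unit that p53 binds in pairs. These genes were also picked for higher values with DOX, and whether the decamer goes with the response was not tested. The DOX change of FAS in shCNOT3-1 (0.19) was under that in shNTC (0.29). That of SESN1 in shCNOT3-2 (0.53) was also under that in shNTC (0.57). RefSeq windows (GRCh38.p14, 250 bases before to 50 after each annotated start) were matched for 27 of the 35 genes, as 39 windows. An exact match to the decamer consensus, which reads the same on both strands, was found in 6 of the 39 windows (15.4%). Over all genes it was found in 6.63% of 35116 windows of the same length. Over all windows, 0.028% held a pair of exact decamers at most 13 bases apart. Among the 39 windows, 1 did, that of DDB2. There the decamers began 6 and 17 bases after the start and lay 1 base apart. Capitals mark the decamers in these windows. A match is a description of the letters and not a binding site shown here.
DDB2, chr11:47214724-47215023, plus strand: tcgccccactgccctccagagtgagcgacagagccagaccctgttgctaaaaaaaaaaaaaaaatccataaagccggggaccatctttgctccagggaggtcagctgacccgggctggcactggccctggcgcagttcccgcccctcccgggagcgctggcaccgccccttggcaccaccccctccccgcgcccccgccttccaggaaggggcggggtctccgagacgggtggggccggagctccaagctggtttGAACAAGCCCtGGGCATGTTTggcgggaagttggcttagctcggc
FAS, chr10:88991181-88991480, plus strand: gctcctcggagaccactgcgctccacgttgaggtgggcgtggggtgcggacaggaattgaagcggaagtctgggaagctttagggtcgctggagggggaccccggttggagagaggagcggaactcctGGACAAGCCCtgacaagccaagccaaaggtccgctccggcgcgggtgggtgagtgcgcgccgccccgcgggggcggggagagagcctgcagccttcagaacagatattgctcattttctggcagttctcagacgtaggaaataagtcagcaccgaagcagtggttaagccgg
SESN1, chr6:109008939-109009238, minus strand: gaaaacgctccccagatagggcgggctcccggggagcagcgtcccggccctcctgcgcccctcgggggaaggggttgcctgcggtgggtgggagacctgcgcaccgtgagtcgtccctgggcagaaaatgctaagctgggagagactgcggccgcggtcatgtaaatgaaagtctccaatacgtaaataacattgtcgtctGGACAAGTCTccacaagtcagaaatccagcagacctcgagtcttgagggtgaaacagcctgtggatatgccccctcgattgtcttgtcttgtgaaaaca
The other windows with a decamer belonged to AEN, PLK2 and FDXR. No exact decamer was found in the windows of the other 21 genes that had one, MDM2, GDF15 and TIGAR included. Decamers with any mismatched base were not counted. The lack of an exact match, or of a pair, therefore does not mean that a window lacks a p53 site.

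CNOT3 itself checked the labels. Its brightest probe set read 81.9 with DOX and 227 without in shCNOT3-1 (36.1% left), and 46.9 and 228 in shCNOT3-2 (20.5% left). In shNTC it read 166 with DOX and 178 without (93.4% left), but on a further probe set 36.9% was left in shNTC as well. All 5 epithelial markers were above the brightness limit on every array, with ranges of 30881 to 42145 for KRT8, 42729 to 52581 for KRT18, 4296 to 7004 for CDH1, 462 to 1361 for KRT19 and 132 to 372 for EPCAM. The DOX change was 1.13, 0.45 and, in shNTC, 0.38 for KRT19, and -0.47, -0.37 and, in shNTC, 0.76 for EPCAM. The leukocyte marker PTPRC, the endothelial CDH5 and the fibroblast COL3A1 were under the brightness limit. Of the markers of other cells, PECAM1 (107 to 277) and COL1A1 (350 to 553) were above it. For PECAM1 the DOX change (log2) was 0.66 in shCNOT3-1, 0.93 in shCNOT3-2 and -0.29 in shNTC, and for COL1A1 it was 0.59, 0.14 and, in shNTC, -0.45. For ACTB the 3' over 5' intensity ratio, a measure of RNA integrity, was 1.42 and 1.45 in the shCNOT3 lines with DOX, 1.33 and 1.36 in the same lines without it, and 1.47 with and 1.58 without in shNTC. The part of these differences in the results below was not tested.

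As a group, p53 targets had higher values with DOX in the shCNOT3 lines, by modest amounts. The median DOX change of the 34 genes, on the log2 scale, was 0.30 in shCNOT3-1, 0.48 in shCNOT3-2 and 0.09 in shNTC. Over all genes tested the medians were 0.05, 0.02 and -0.01. Higher values with DOX in both shCNOT3 lines were seen for 22 of the 34 (64.7%), against 33.2% of all genes tested. For 4 of the 34 (11.8%) the value was lower in both lines, against 26.9%, and for 8 (23.5%) the lines had opposite signs, against 39.9%. In shNTC, 18 of the 34 (52.9%) were higher with DOX, against 48.8% of all genes. In bulk RNA, more cells with a transcript and more of it per cell cannot be told apart.

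**Figure D1:**
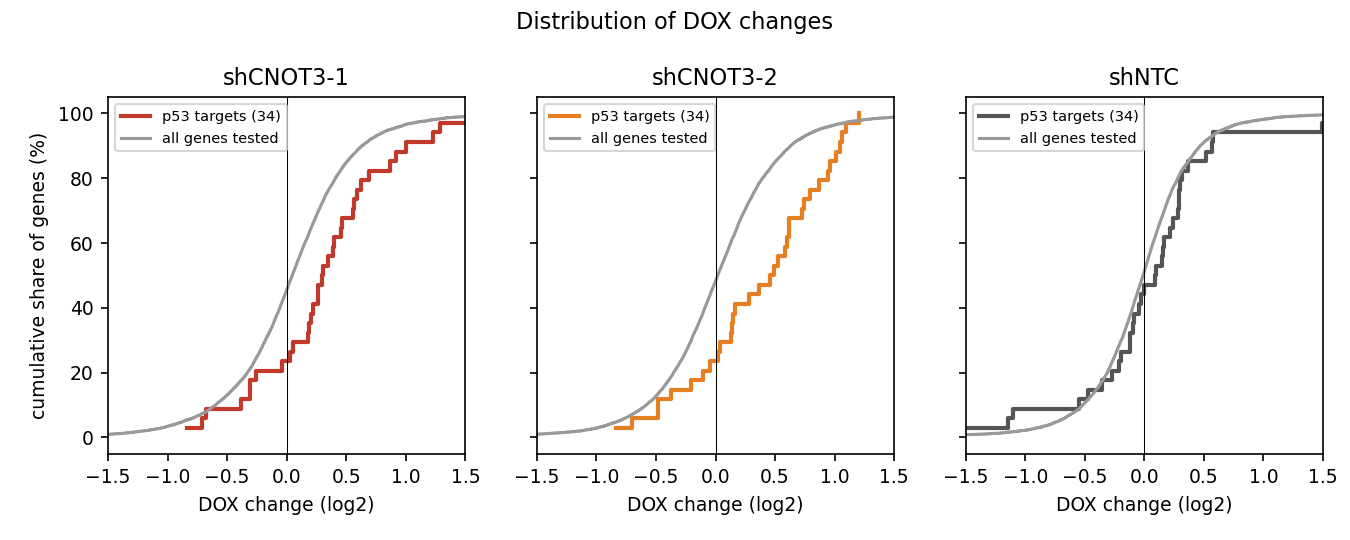
Cumulative share of genes (vertical axis, percent) by DOX change (horizontal axis, log2 of DOX over no DOX) in each line, for the 34 p53 targets (coloured) and all 12630 genes tested (grey), from 1 array per condition. The p53 target curve lies to the right of the grey curve over most of its course in the shCNOT3 lines, with medians of 0.30 and 0.48, and close to it in shNTC, with a median of 0.09. Values beyond 1.5 in size lie outside the panels.

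No single p53 target passed the test. With limma and Benjamini-Hochberg adjustment over all genes, 0 of 34 passed at 0.05 for the knockdown term, the average DOX response over both CNOT3 hairpins, and 0.222% of all genes did. At an unadjusted p under 0.05, 12 of 34 were higher (35.3%, against 7.45% of all genes) and 1 was lower (2.94%, against 7.08%). For the change beyond that of shNTC, 0 of 34 passed, as did 0 of 12630 genes. Unadjusted, 7 were higher (20.6%, against 4.48%) and 2 lower (5.88%, against 3.92%). The 7 included MDM2 and CD82, whose mean changes in the shCNOT3 lines were only 0.08 and -0.13. For them the shNTC change was -1.10 and -2.85. Over the MDM2 probe sets above the brightness limit, the shNTC change ran from -1.10 to 1.54. TNFRSF10C was among the 2 lower, with a shNTC change of 2.24 and a mean of -0.34 in the shCNOT3 lines. With no block for line, or with shNTC left out, TIGAR and GDF15 passed the first test. The 34 genes had a median mean log2 intensity of 10.21, against 9.42 over all genes tested, and the part of this in the counts was not tested.

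Counted by size, 5 genes were at least 1.5-fold higher in both shCNOT3 lines with a shNTC change under 0.5 of theirs: PLK3, TIGAR, GDF15, TRIAP1 and DDB2. That is 14.7% of the 34, where 2.54% of all genes met the rule. KITLG was the 1 gene lower by the same rule (2.94%, against 2.26%). For 13 genes both shCNOT3 arrays with DOX read above all 4 other arrays (38.2%, against 16% of all genes), and for KITLG they read below all 4 (2.94%, against 12.8%). Both shCNOT3 changes lay above that of shNTC for 21 genes (61.8%, against 39% of all genes). Line by line, 9 genes were at least 1.5-fold higher in shCNOT3-1 (26.5%, against 11.7%), 14 in shCNOT3-2 (41.2%, against 11.6%) and 2 in shNTC (5.88%, against 6.47%). At least 1.5-fold lower were 3 genes in shCNOT3-1 (8.82%, against 10.5%), 2 in shCNOT3-2 (5.88%, against 9.94%) and 3 in shNTC (8.82%, against 7.86%).

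**Figure D2:**
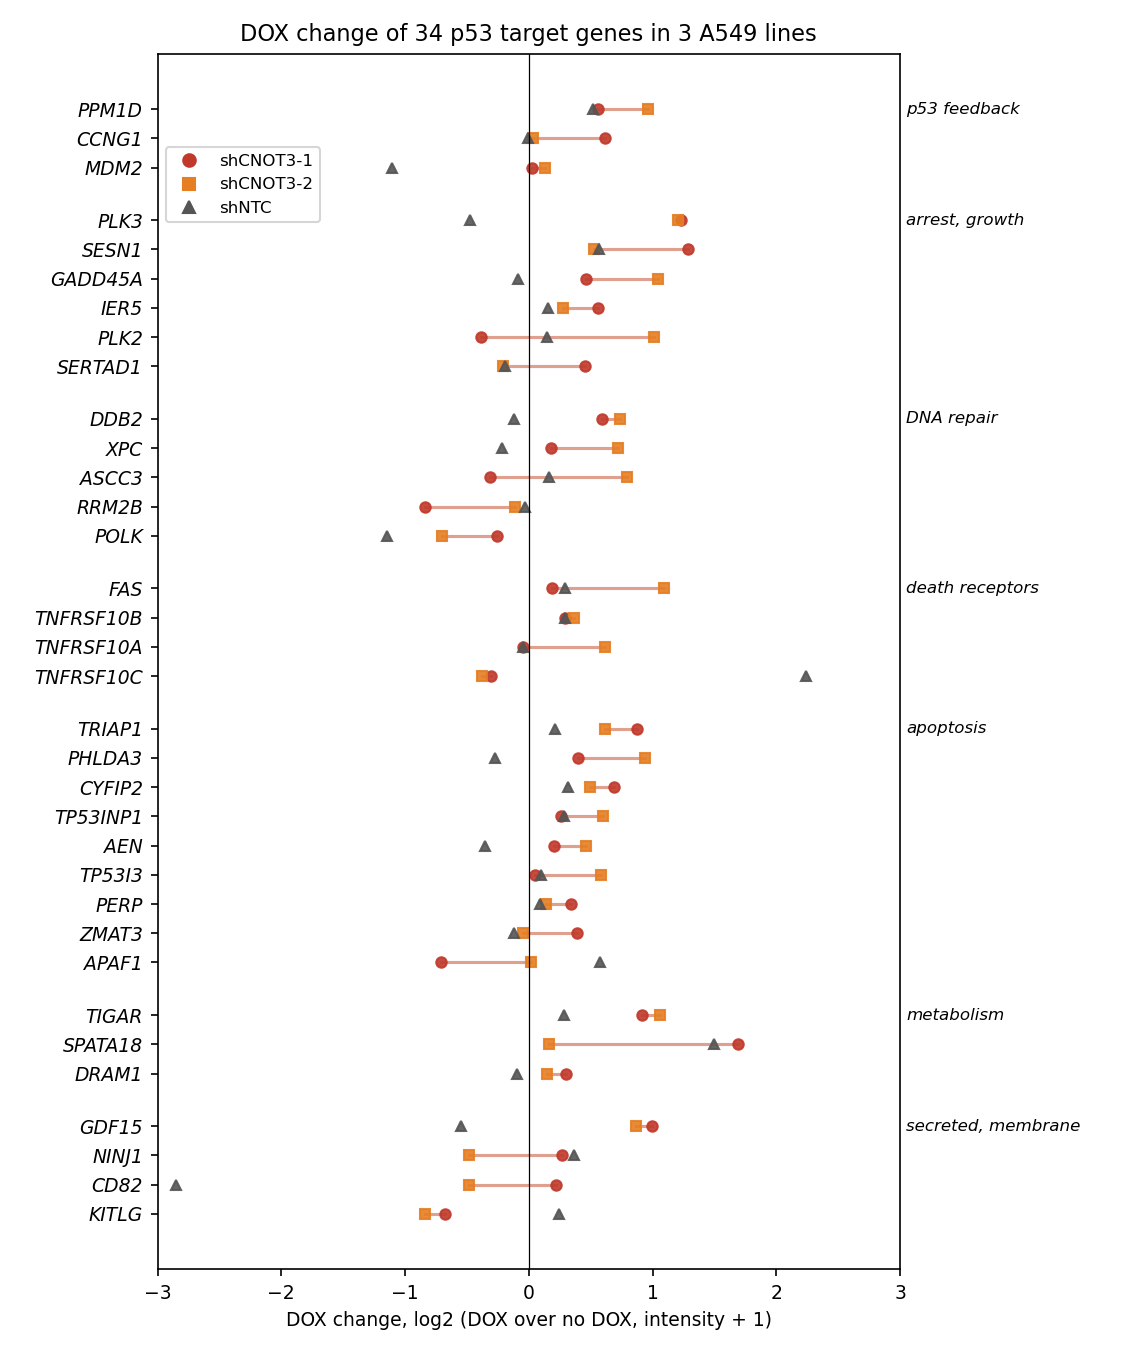
DOX change (horizontal axis, log2 of DOX over no DOX) of each of the 34 p53 targets in shCNOT3-1, shCNOT3-2 and shNTC, 1 point per line, grouped by role, with a bar joining the shCNOT3 lines. PLK3, TIGAR, GDF15 and DDB2 lie to the right of 0 in both shCNOT3 lines, close to each other and clear of the shNTC point, while PLK2, ASCC3 and SPATA18 differ widely between the lines.

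Among the genes that feed back on p53, the phosphatase PPM1D had higher values with DOX in every line and MDM2 did not. PPM1D, which dephosphorylates p53 and its upstream kinases, read 1029 with DOX and 696 without in shCNOT3-1, 1744 and 896 in shCNOT3-2, and 940 and 656 in shNTC. Its log2 changes were 0.56, 0.96 and 0.52, so the change in the control line was close to that in shCNOT3-1. A second, dimmer PPM1D probe set gave -0.60, -0.35 and -0.21, and the average of both had a mean change of 0.14. MDM2 read 1980 with DOX and 1944 without in shCNOT3-1, 2401 and 2194 in shCNOT3-2, and 987 and 2122 in shNTC. The 2 changes in the shCNOT3 lines were 0.03 and 0.13, and on this probe set the array that stood apart was shNTC with DOX (-1.10). Of 6 MDM2 probe sets above the brightness limit, the mean of the shCNOT3 lines ran from -0.68 to 0.42, with 3 below 0. CCNG1, a cyclin that brings a phosphatase to MDM2, read 13899 with DOX and 9043 without in shCNOT3-1, but 9628 and 9393 in shCNOT3-2 and 9055 and 9088 in shNTC. The array that stood apart was shCNOT3-1 with DOX.

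Among genes of growth arrest, 4 of 6 were higher in both shCNOT3 lines, where 33.2% of all genes were, and 6 genes are few to read a share from. PLK3, a stress-responsive kinase of the polo family, read 224 with DOX and 95.0 without in shCNOT3-1, 147 and 63.2 in shCNOT3-2, and 87.8 and 122 in shNTC. Both shCNOT3 arrays with DOX were above the other 4 arrays, but the intensities were low. Its mean log2 change was 1.22 (SE 0.38 of the model; SD between hairpins 0.01, n = 2), with a limma adjusted p = 0.202. The dimmer second PLK3 probe set gave -0.18, -0.27 and, in shNTC, -0.17, and the average over all PLK3 probe sets was 0.13.

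SESN1, which restrains mTORC1 under stress, read 557 with DOX and 227 without in shCNOT3-1, 447 and 310 in shCNOT3-2, and 513 and 345 in shNTC. The shNTC array with DOX lay between the shCNOT3 arrays with DOX, and the log2 changes were 1.29, 0.53 and 0.57. GADD45A, a stress protein that binds proliferating cell nuclear antigen, read 2062 with DOX and 1494 without in shCNOT3-1, 3199 and 1552 in shCNOT3-2, and 1493 and 1586 in shNTC. Its changes were 0.46, 1.04 and -0.09, and both shCNOT3 arrays with DOX exceeded the rest (limma adjusted p = 0.155). The immediate early gene IER5 gave smaller changes of 0.56, 0.28 and 0.15. PLK2, another polo family kinase, read 3199 with DOX and 4174 without in shCNOT3-1, against 7497 and 3709 in shCNOT3-2, and 4794 and 4330 in shNTC. It was lower with DOX in shCNOT3-1 (-0.38) and higher in shCNOT3-2 (1.01). SERTAD1, a transcriptional coregulator, also had opposite signs (0.46 and -0.21, with -0.19 in shNTC).

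DNA repair genes divided. DDB2, which recognises ultraviolet damage for nucleotide excision repair, read 2611 with DOX and 1730 without in shCNOT3-1, 2674 and 1602 in shCNOT3-2, and 1742 and 1895 in shNTC. The DOX arrays of the shCNOT3 lines stood above all others, which spanned only 1602 to 1895. Its mean change was 0.67 (SE 0.18; SD 0.10, n = 2; limma adjusted p = 0.158), and this is the gene whose promoter window holds the paired decamers. XPC, the damage sensor that works with it, gave 0.18, 0.72 and, in shNTC, -0.21. POLK, a polymerase that copies past damaged bases, read 809 with DOX and 968 without in shCNOT3-1, 666 and 1080 in shCNOT3-2, and 427 and 945 in shNTC. On this probe set POLK was lower with DOX in every line, most in the control (-1.14). Its other probe set above the brightness limit gave -0.71 and 0.06, and -0.11 in shNTC. RRM2B, the p53-inducible subunit of ribonucleotide reductase, read 699 with DOX and 1251 without in shCNOT3-1, 1180 and 1272 in shCNOT3-2, and 1072 and 1095 in shNTC. Its change was -0.84 in shCNOT3-1, -0.11 in shCNOT3-2 and -0.03 in shNTC. The helicase ASCC3 had opposite signs (-0.31 and 0.79, with 0.17 in shNTC), and its other probe set gave -0.93 and -0.47.

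**Figure D3:**
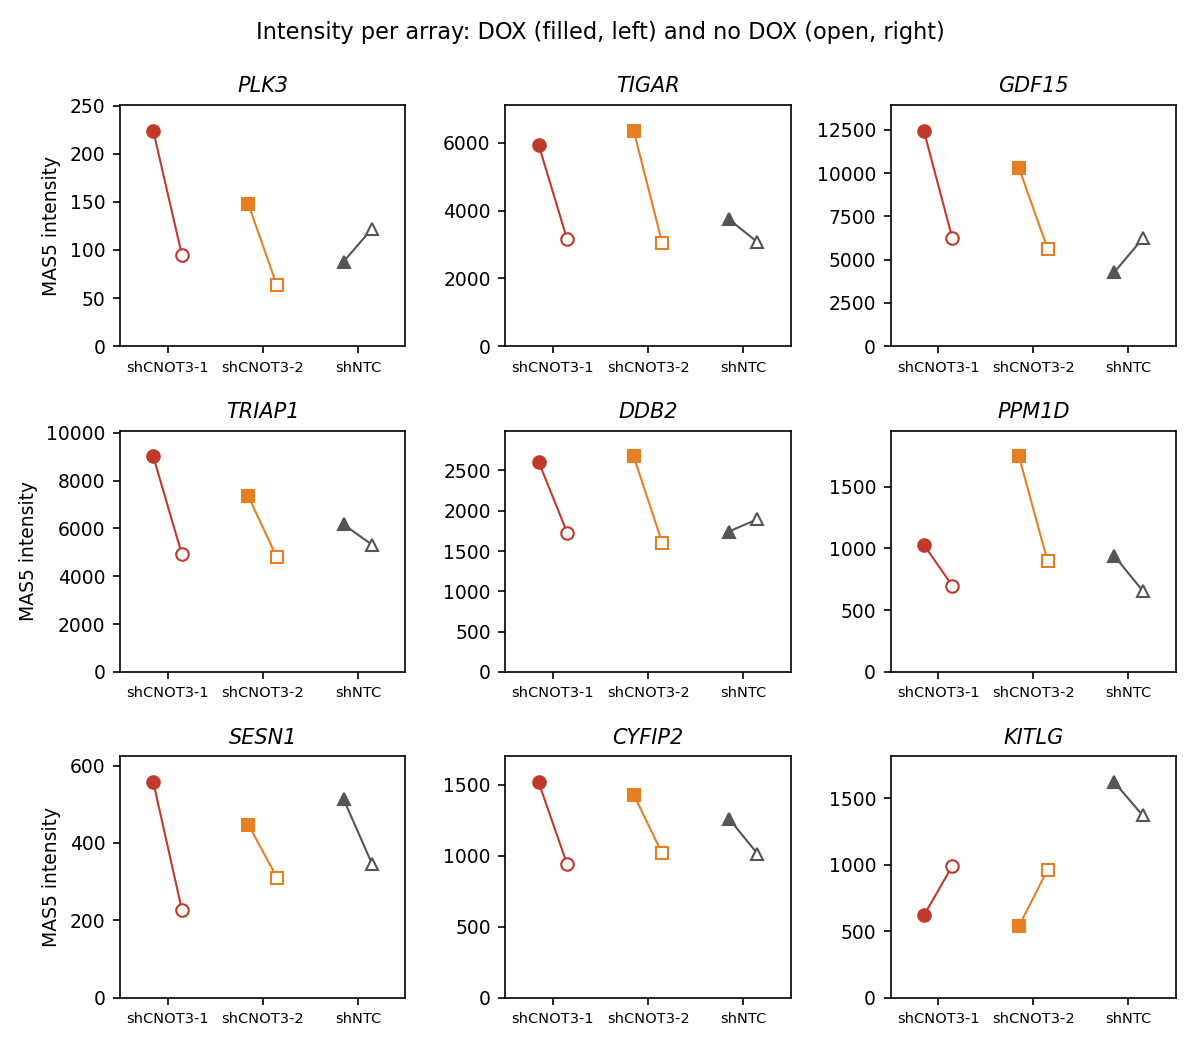
MAS5 intensity (vertical axis, linear, from 0) of 9 p53 targets on each of the 6 arrays, DOX (filled, left) and no DOX (open, right) in each line. For PLK3, TIGAR, GDF15, TRIAP1, DDB2, PPM1D and CYFIP2 both shCNOT3 lines with DOX lie above every other array. For TIGAR, TRIAP1, PPM1D, SESN1 and CYFIP2 the shNTC line was higher with DOX too. KITLG was lower with DOX in the shCNOT3 lines only.

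The death receptors gave a mixed picture. FAS read 860 with DOX and 753 without in shCNOT3-1, 1528 and 715 in shCNOT3-2, and 873 and 712 in shNTC. The change was 1.09 in shCNOT3-2, while that in shCNOT3-1 (0.19) was smaller than in shNTC (0.29). The 4 FAS probe sets above the brightness limit gave 1.01 to 1.29 in shCNOT3-2, and 0.02 to 0.51 in shCNOT3-1. Of the TRAIL receptors that signal death, TNFRSF10A was likewise higher in shCNOT3-2 (0.62) but not in shCNOT3-1 or shNTC (both -0.04). TNFRSF10B read 7383 with DOX and 6012 without in shCNOT3-1, 6696 and 5201 in shCNOT3-2, and 7580 and 6173 in shNTC. Its changes of 0.30, 0.36 and 0.30 lay close together, and the change beyond shNTC was 0.03 (SE 0.27), an error wide enough to leave a sizeable difference undetected. The decoy receptor TNFRSF10C was dim, at 73.2 with DOX and 90.7 without in shCNOT3-1, 99.7 and 130 in shCNOT3-2, and 78.2 and 15.8 in shNTC. The shNTC array without DOX was the outlying value.

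Of 9 genes of intracellular apoptosis, 7 were higher in both shCNOT3 lines, where 33.2% of all genes were. TRIAP1, a mitochondrial lipid transfer protein that restrains apoptosis, read 9011 with DOX and 4926 without in shCNOT3-1, 7340 and 4787 in shCNOT3-2, and 6168 and 5315 in shNTC. Both shCNOT3 arrays with DOX were highest, and shNTC with DOX came next. The mean change was 0.74 (SE 0.16; SD 0.18, n = 2; limma adjusted p = 0.0954), against 0.21 in shNTC. PHLDA3, an inhibitor of AKT, gave 0.39 and 0.94, and -0.27 in shNTC, and its second probe set gave -0.05 and 0.98. CYFIP2, an actin regulator of the WAVE complex, read 1520 with DOX and 940 without in shCNOT3-1, 1432 and 1016 in shCNOT3-2, and 1262 and 1015 in shNTC. Here its 2 probe sets gave nearly the same changes, with means of 0.59 and 0.60, and both gave 0.31 in shNTC.

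No other apoptosis gene was higher by the unadjusted test. The nuclease AEN gave 0.21, 0.46 and, in shNTC, -0.35, and the quinone oxidoreductase TP53I3 gave 0.05, 0.58 and 0.10. TP53INP1, which acts in stress signalling and autophagy, gave 0.26, 0.60 and 0.29. PERP, a membrane protein of desmosomes and apoptosis, read 20045 with DOX and 15800 without in shCNOT3-1, 20110 and 18287 in shCNOT3-2, and 20869 and 19631 in shNTC. The shNTC array with DOX was its highest, and its other probe sets above the limit gave means of -0.21 and -0.98. The RNA-binding protein ZMAT3 (0.39 and -0.05, with -0.12 in shNTC) and APAF1, the scaffold of the apoptosome (-0.71 and 0.02, with 0.58 in shNTC), had opposite signs in the shCNOT3 lines. The other ZMAT3 probe sets above the limit each had the same sign in both. They gave 0.08 and 0.15, -0.24 and -0.17, 0.48 and 0.22, and 0.57 and 0.01.

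TIGAR, a phosphatase that slows glycolysis and favours the pentose phosphate pathway, had the lowest adjusted p of the 34 genes. It read 5953 with DOX and 3155 without in shCNOT3-1, 6358 and 3040 in shCNOT3-2, and 3750 and 3073 in shNTC. The arrays without DOX lay within 3040 to 3155 in all lines, and both shCNOT3 lines were higher with DOX by more than the control line. The mean change was 0.99, or 1.99-fold (SE 0.17; SD 0.11, n = 2), against 0.29 in shNTC, with a limma adjusted p = 0.0543 that did not pass. The change beyond shNTC was 0.70 (unadjusted p = 0.0432). SPATA18, which acts in mitochondrial quality control, read 388 with DOX and 119 without in shCNOT3-1, 212 and 189 in shCNOT3-2, and 185 and 65.0 in shNTC. Its changes of 1.69, 0.16 and 1.49 put the control line near shCNOT3-1. The lysosomal autophagy gene DRAM1 gave 0.30, 0.15 and -0.10.

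The secreted cytokine GDF15, of the TGF-beta superfamily, had the lowest unadjusted p of the 34 genes for the change beyond shNTC. It read 12446 with DOX and 6225 without in shCNOT3-1, 10299 and 5634 in shCNOT3-2, and 4263 and 6228 in shNTC. The shCNOT3 lines were higher with DOX and the control line lower, and both shCNOT3 arrays with DOX were above the other 4. The mean change was 0.93 (SE 0.19; SD 0.09, n = 2; limma adjusted p = 0.0811), and -0.55 in shNTC. The change beyond shNTC was 1.48 (SE 0.26), with an unadjusted p of 0.000258 and a limma adjusted p = 0.191. The GDF15 probe set is of a type open to cross-hybridisation, and the other 2 were under the brightness limit. With all 3 probe sets averaged, the mean change was 0.17 (limma adjusted p = 0.887).

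KITLG, the ligand of the receptor KIT, went the other way. It read 618 with DOX and 990 without in shCNOT3-1, 537 and 961 in shCNOT3-2, and 1620 and 1370 in shNTC. Both shCNOT3 arrays with DOX were lowest, although the shCNOT3 lines also differed from shNTC without DOX. The mean change was -0.76 (SE 0.20; SD 0.11, n = 2; limma adjusted p = 0.152), against 0.24 in shNTC. CD82, a tetraspanin, read 168 with DOX and 144 without in shCNOT3-1, 160 and 223 in shCNOT3-2, and 30.5 and 227 in shNTC. The array that stood apart was shNTC with DOX. NINJ1, which ruptures the plasma membrane of dying cells, had opposite signs (0.27 and -0.49, with 0.36 in shNTC).

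The hairpins were then compared across the genes. DOX changes of the 34 genes in shCNOT3-1 and shCNOT3-2 correlated at r = 0.397 (Spearman 0.353), and over all 12630 genes at 0.261 (0.275), across genes, which are not independent replicates. With the sign kept, the change was higher in shCNOT3-2 than in shCNOT3-1 for 17 of the 34 (50.0%), near the 47.7% of all genes. FAS, PLK2, ASCC3 and TNFRSF10A were higher mainly in shCNOT3-2, and CCNG1 mainly in shCNOT3-1, with 1 array per condition and without a test of the difference. SESN1 and SPATA18 changed more in shCNOT3-1 (1.29 and 1.69) than in shCNOT3-2 (0.53 and 0.16). In shNTC, however, these 2 genes were also higher with DOX (0.57 and 1.49). For 14 of the 34 (41.2%, against 21.3% of all genes) the changes had the same sign in both shCNOT3 lines and the smaller exceeded the range of the gene over the 3 lines without DOX. Without DOX, the lines differed by a median of 0.24 (log2) for the 34 genes, and by 0.30 for all genes.

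**Figure D4:**
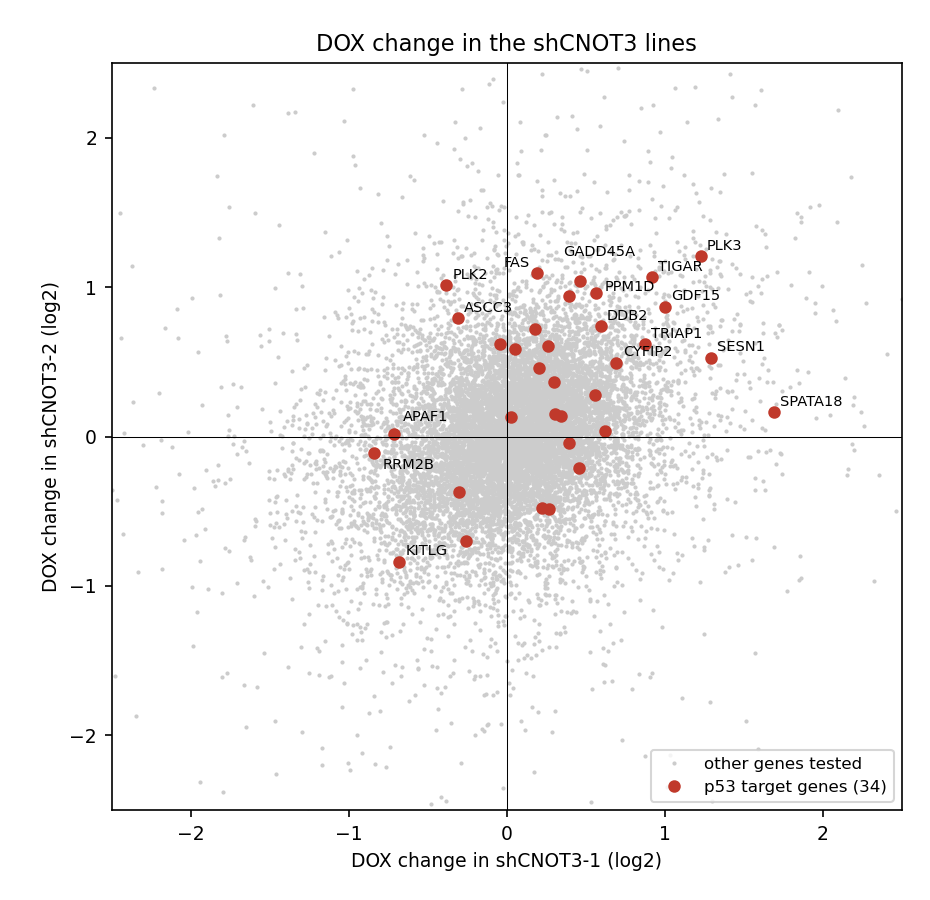
DOX change (log2) in shCNOT3-1 (horizontal axis) and shCNOT3-2 (vertical axis) for the 34 p53 targets (red) and the other genes tested (grey), with 69 genes beyond 2.5 in size not shown. Most p53 targets, 22 of 34, lie in the upper right area, where both lines were higher with DOX, and KITLG lies in the lower left.

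Probe sets of the same gene did not always give the same direction. Of the 34 genes, 21 had 1 probe set above the brightness limit and 13 had several. Among these 13, all probe sets had the same sign of the mean change for 6 (CYFIP2, FAS, PHLDA3, POLK, TNFRSF10A and TNFRSF10B), and signs were mixed for 7 (APAF1, ASCC3, MDM2, PERP, PLK3, PPM1D and ZMAT3). TIGAR, GDF15, TRIAP1, DDB2 and KITLG each rested on 1 probe set above the limit.

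Other genes of the pathway were read from the same fits. Of 17 regulators of p53, 14 were tested and 0 passed in limma, with 1 higher and 1 lower at an unadjusted p under 0.05, about the share over all genes (7.45% higher and 7.08% lower). The lower one was HIPK2, a kinase that phosphorylates p53, at -2.43 and -0.66 in the shCNOT3 lines and 0.34 in shNTC (limma adjusted p = 0.0955). The higher one was TP53BP1, a DNA break repair factor, at 0.65, 0.92 and 0.27. MDM4, the partner of MDM2, gave -0.14, -0.20 and 0.14. The median change of the 14 was 0.02. Of 22 further p53 targets, 17 were tested and 0 passed, with 5 higher and 1 lower unadjusted, beside the same shares over all genes (7.45% and 7.08%). CDKN1A, known as p21, which halts the cell cycle, gave 1.30 and 0.99, and -0.10 in shNTC (limma adjusted p = 0.0534), and the apoptosis effector BAX gave 1.35, 0.78 and -0.24 (0.0656). The others that were higher unadjusted were SESN2, SULF2 and SFN, and EI24 was lower. The median of the 17 was 0.21, against 0.33 for the 34 genes and 0.03 for all genes. In shNTC, however, 12 of the 17 were also higher with DOX, against 48.8% of all genes. Their median change beyond shNTC was 0.01, against 0.32 for the 34 genes and 0.05 for all genes. Both shCNOT3 changes lay above that of shNTC for 7 of the 17, near the 39% of all genes.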

How the data were processed

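RNA of 6 cultures of A549 cells was measured on 1 Affymetrix array each. The deposited values are linear probe set intensity. Per the submitters' processing notes the tool was MAS5, and its settings and a genome build were not given in the sources used here. The deposited intensity had a mean of 499.9 on every array after trimming 2% at each end, its lowest value was 1, and array medians were 64.9 to 72.8. Precision is limited by the number of arrays.

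Probe sets with 1 gene in the platform annotation (41097 of 54675) were given current RefSeq symbols through the Entrez identifier. Each of 19775 genes was represented by its brightest such probe set, and 12630 with a mean log2(intensity + 1) of at least 5.96, the median of all probe sets, were tested. Adding 1 shrinks fold changes of the dimmest genes. limma 3.58.1 in R 4.3.3 was run with an intensity trend, 2-sided, with Benjamini-Hochberg adjustment over all genes tested and a threshold of 0.05. The knockdown term was set in the shCNOT3 arrays with DOX, with the line as a block, since the labels pair both DOX states within a line (2 residual and 7.59 prior degrees of freedom). A second model added a DOX term (1 residual degree of freedom). The hairpins were the replicates (n = 2). The first model had no DOX term, so the DOX change in shNTC counted there as spread, together with the difference between hairpins. The SE and p-values of the knockdown term are therefore not a spread between hairpins alone. In 5 simulated tables of 12630 genes, 200 were changed. The knockdown term recovered 73.1% of 2-fold and 96.6% of 4-fold changes with 5.19% false calls, and the second model 22.1% and 81.3% with 9.38%. The simulated noise was normal, and genes of like brightness shared the same spread. Each added change was the same in both hairpins, and no DOX change was added in shNTC. Real genes of like brightness can differ in spread, and real changes can differ between hairpins or occur in shNTC. In the real data, recovery may therefore be lower and false calls more frequent.

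Genes were named by role and by a rule on their values in the shCNOT3 lines, in shNTC and by brightness. Every listed gene, lists and rules were chosen with earlier results of these data known. Alternatives covered scaling, the added constant, the filter, the choice of probe set, the trend, the block, and leaving out each line. Figures used Python 3.11.15 and matplotlib 3.10.9.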

Additional observations from a re-analysis of the deposited data

How the results depend on the processing

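Of the 34 genes, 0 passed in limma for the knockdown term under quantile normalization, an added constant of 16, no filter on dim genes, either other choice of probe set, no intensity trend, or with shCNOT3-1 or shCNOT3-2 left out. Exceptions were the fit with no block for line, where 2 passed (TIGAR, limma adjusted p = 0.0142, and GDF15, 0.0204), and that without shNTC, where the same 2 passed (0.0457 and 0.0324). The pairing of arrays within a line is given by the labels, and with no block TNFRSF10C (0.45) and CD82 (0.42) turned positive. Over all genes 28 passed, and from 0 (no trend) to 191 (no block) under the alternatives. The change beyond shNTC gave 0 genes in every fit that could be run, and with a line left out it could not be fitted.

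The count at least 1.5-fold higher in the shCNOT3 lines beyond shNTC was 5, and 3 when probe sets of 1 gene were averaged, dim ones included, where the count lower was 0 and not 1. That averaging took GDF15 to 0.17, PLK3 to 0.13 and PPM1D to 0.14. It left 30 genes tested, of which 15 were higher in both shCNOT3 lines, where 22 of 34 were with the brightest probe sets. The median knockdown change was 0.32, against 0.02 over all genes. Without the probe sets that can bind several transcripts, 24 genes were tested, of which 4 were higher and 2 lower by the fold rule, and 14 were higher in both lines. The median knockdown change was then 0.32, against 0.01 over all genes. Shares of all genes by direction or by the fold rule were not counted under either setting. With 1 line left out, genes higher by the fold rule were 5 to 13, lower 1 to 3, higher in the remaining shCNOT3 lines 22 to 26 and lower 4 to 8, since with 1 shCNOT3 line left the rule asks for that line alone. The median change was 0.30 without shCNOT3-2 and 0.48 without shCNOT3-1. Direction turned for PERP (-0.30 with the mean of probe sets and -0.98 without the shared kinds) and ASCC3 (-0.23 with the mean). With shCNOT3-1 and then shCNOT3-2 left out, the remaining change had opposite signs for TNFRSF10A (0.62 and -0.043), ZMAT3 (-0.045 and 0.39), PLK2 (1.01 and -0.38), NINJ1 (-0.49 and 0.27), ASCC3 (0.79 and -0.31), SERTAD1 (-0.21 and 0.46), CD82 (-0.48 and 0.22) and APAF1 (0.019 and -0.71). PLK3 (mean log2 intensity 6.84) and TNFRSF10C (6.13) lie near the brightness limit of 5.96.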
